A study of Homo sapiens with 6 samples.

Results

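The genes described are the E2F transcription factor genes E2F1, E2F2, E2F3, E2F4, E2F7 and E2F8, the DP partner gene TFDP1 and the pocket protein genes RB1, RBL1 and RBL2. They were taken by name from the deposited count table and are 10 of its 32078 named genes. All 10 passed the filter on low counts and are among the 14670 genes tested. The libraries were made from poly(A) RNA of PANC-1, an established human pancreatic carcinoma cell line. By the titles and treatment labels, 3 libraries came from cells given extracellular vesicles (EVs) of cancer-associated fibroblasts (CAFs), and 3 came from untreated control cells of the same line. The comparison asked which transcripts differ in tumour cells given vesicles of stromal fibroblasts. The sources used here give neither EV dose nor exposure time. Their protocol text speaks of EV pretreatment for control libraries too, so each library was grouped by its title and treatment label.

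E2F proteins bind the promoters of genes needed for DNA replication and cell division, usually as dimers with a DP protein such as the product of TFDP1. The pocket proteins pRB, p107 and p130, encoded by RB1, RBL1 and RBL2, bind E2Fs and hold their target genes down. Cyclin D with CDK4 or CDK6, and then cyclin E with CDK2, phosphorylate the pocket proteins and release the E2Fs. E2F1, E2F2 and E2F3 are known as activators. E2F4 acts mainly as a repressor with p107 or p130, while E2F7 and E2F8 are atypical repressors that bind DNA without a DP partner and without pocket proteins. Several of these genes are themselves known E2F targets, so the network feeds back on its own transcription.

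Promoter sequences were compared because members of a network that regulates itself can carry binding words for their own products. RefSeq promoters on GRCh38.p14, running from 250 bases before to 50 bases after the start site, were matched by symbol for 9 of the 10 genes. They were searched on both strands for 4 forms of the E2F consensus, TTTCCCGC, TTTCGCGC, TTTGCCGC and TTTGGCGC, none of which contains another. Of all 35116 promoters in that table, 3.31% held at least 1 of these words. Counted per gene over all its promoters, 691 of 10292 tested genes with a promoter held at least 1. Among the 10 genes, E2F1, E2F2, E2F3, TFDP1 and RBL1 held at least 1. The stretches around them are shown 5′ to 3′ on the strand of each gene, with the words in capitals.
E2F1 (chr20:33686386-33686448, minus strand): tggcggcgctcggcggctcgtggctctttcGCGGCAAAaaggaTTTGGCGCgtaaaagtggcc
E2F2 (chr1:23531238-23531305, minus strand): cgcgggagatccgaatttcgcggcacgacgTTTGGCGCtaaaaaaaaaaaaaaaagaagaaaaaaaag
E2F3 (chr6:20401796-20401863, plus strand): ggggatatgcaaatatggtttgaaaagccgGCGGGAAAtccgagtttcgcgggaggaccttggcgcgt
TFDP1 (chr13:113584603-113584670, plus strand): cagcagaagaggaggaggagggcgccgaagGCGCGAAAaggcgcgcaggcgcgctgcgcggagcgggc
RBL1 (chr20:37095998-37096053, minus strand): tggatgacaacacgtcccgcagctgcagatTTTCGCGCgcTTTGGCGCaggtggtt
E2F1 and RBL1 each held 2 words close to the start site, and in E2F1 the pair lay on opposite strands. The word in TFDP1 lay farther upstream, with its first base at position -120 from the start site. E2F3 has 2 promoters in the table, and the word was in the one shown. No word was in the windows of E2F4, E2F7 or RBL2, which says only that these letters are absent there. The only window listed for RB1 (chr13:48476200-48476499, plus strand) held none either. Its GC content was 38.3%, against 53.0% to 79.7% in the other windows. It may not cover the main start site of RB1, so nothing can be said of words in the RB1 promoter. A word in a promoter is a description of sequence, and binding was not measured.

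Total counts over named genes ranged from 21647493 to 27107004 in the EV libraries and from 23616966 to 27498709 in the control libraries. The first principal component held 69.8% of the variance and separated the groups, and no pair of replicates agreed within sampling noise. The labels do not tell whether replicates are separate cultures, and the spread behind each p-value may therefore be technical. Values are CPM, counts divided by the library's total and scaled with TMM factors, and a count of 0 allows up to 0.110 to 0.138 CPM, depending on the library and for counting error only. Of 9 epithelial markers, KRT8, KRT18, KRT19 and SOX9 were tested, of which KRT19 and SOX9 fell, while EPCAM and CDH1 had 0 counts in all 6 libraries. Of 13 fibroblast markers, 2 were higher and 2 lower among 5 tested, and 4 had 0 counts in all libraries (DCN, LUM, POSTN and THY1). The summed level of the fibroblast markers was 366 to 408 CPM in EV libraries and 377 to 414 CPM in control libraries, nearly all of it from COL1A2 (higher) and COL6A3 (lower). Leukocyte markers summed to at most 1.37 CPM in EV libraries and 1.17 CPM in control libraries, and endothelial markers to at most 5.36 CPM in EV libraries and 5.06 CPM in control libraries. Of 13 mitochondrially encoded genes, 2 rose and 1 fell. Fewer cells of a kind and less RNA per cell cannot be told apart in such bulk libraries.

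In the EV libraries, 6 of the 10 genes rose and 0 fell. Those that rose were E2F1, E2F2, E2F7, E2F8, TFDP1 and RBL1. The largest fold changes were those of E2F2 (1.96-fold), E2F7 (1.87-fold) and E2F8 (1.62-fold). E2F3, E2F4, RB1 and RBL2 did not pass. Among all tested genes, 40.9% were called, 20.2% higher and 20.7% lower, at an adjusted p under 0.05 (edgeR quasi-likelihood test). At an unadjusted p under 0.05, 7 of the 10 were higher and 0 lower, and DESeq2 and limma-voom also called 6 higher and 0 lower. For this and the lists below, 3514 of all 14670 tested genes were higher and 3641 lower at that unadjusted threshold. Over all genes, DESeq2 called 2797 higher and 2380 lower of 27394, and limma-voom 2976 higher and 3008 lower of 14670. DESeq2 was run without the filter on low counts. Its 27394 genes include many with too few counts to be called, so its shares are not comparable with those over 14670. The median log2 fold change of the 10 genes was 0.32, against -0.0071 over all tested genes.

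**Figure D1:**
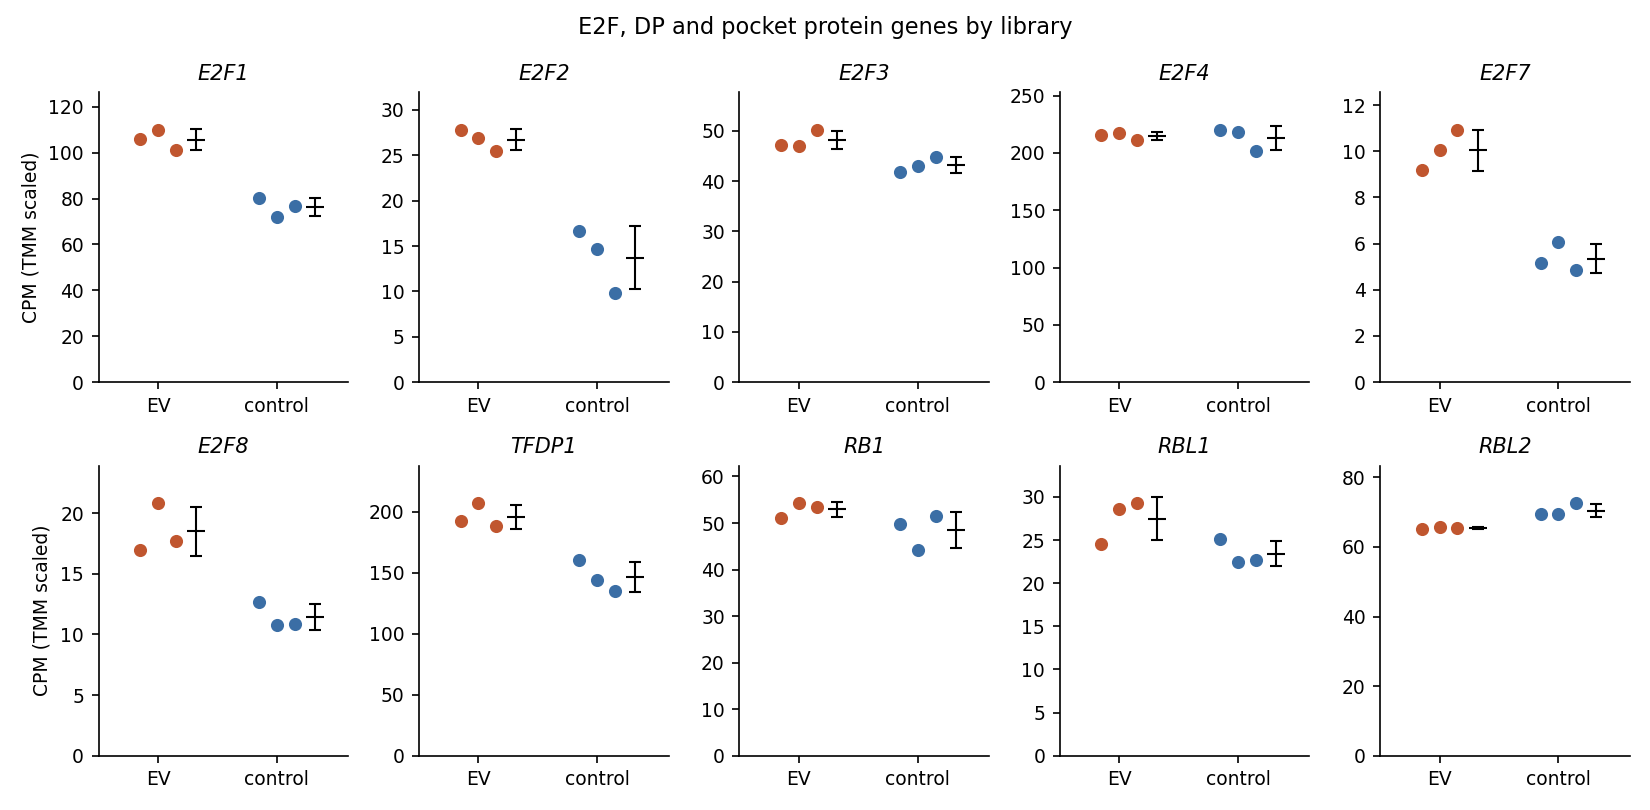
CPM of each gene in each library, with EV-treated libraries at the left and control libraries at the right of each panel; points are libraries in replicate order, and the bars beside them are mean ± SD (n = 3 each). All EV points lie above all control points for E2F1, E2F2, E2F3, E2F7, E2F8 and TFDP1, and below them for RBL2.

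Among the activators, E2F1 and E2F2 rose. E2F1, which drives entry into S phase, was at 106, 110.0 and 101 CPM in the EV libraries, against 80.1, 72.0 and 77.0 CPM in the control libraries. The groups did not overlap, and the log2 fold change was 0.47 ± 0.06 (SE; edgeR adjusted p = 8.43e-06). E2F2, a close relative of E2F1 among the activators, was at 27.8, 26.9 and 25.5 CPM in the EV libraries, against 16.6, 14.6 and 9.86 CPM in the control libraries. The 3 EV libraries lay close together, while control replicate 3 stood below the other controls. The log2 fold change of E2F2 was 0.97 ± 0.13 (SE; edgeR adjusted p = 7.03e-06), and without control replicate 3 it was 0.78 (edgeR adjusted p = 2.37e-06).

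E2F3, the remaining activator, had 47.1, 47.0 and 50.2 CPM in the EV libraries, against 41.8, 43.0 and 44.8 CPM in the control libraries. Its groups did not overlap either, but the difference was small (log2 fold change 0.15 ± 0.07, SE) and did not pass after adjustment (edgeR adjusted p = 0.0654). The E2F3 pseudogene E2F3P2 had 3 to 4 counts in the EV libraries and 1 to 7 in the control libraries, beside 975 to 1274 counts of E2F3 over the 6 libraries. Without overlap were 6 of the 10 genes with EV higher and 1 with EV lower, against 25.1% and 25.5% of all tested genes (50.6% in either direction).

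E2F4, the repressor that works with p107 and p130, had the most counts of the 10 genes. It was at 216, 218 and 211 CPM in the EV libraries, against 220.2, 218 and 201 CPM in the control libraries. The groups overlapped, with a log2 fold change of 0.01 ± 0.06 (SE; edgeR adjusted p = 0.902; 95% interval -0.11 to 0.13), and its sign turned with upper-quartile scaling and without control replicate 3. The upper end of that interval lay below the fitted changes of E2F1, E2F2, E2F7, E2F8 and TFDP1.

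Both atypical repressors rose. E2F7, which limits the E2F programme late in S phase, was at 9.17, 10.0 and 10.9 CPM in the EV libraries, against 5.14, 6.07 and 4.84 CPM in the control libraries. Every EV library lay above every control (log2 fold change 0.91 ± 0.12, SE; edgeR adjusted p = 1.23e-05). E2F8, which can pair with E2F7 and represses E2F1 among other targets, was at 16.9, 20.8 and 17.7 CPM in the EV libraries, against 12.6, 10.7 and 10.9 CPM in the control libraries. Its groups did not overlap, with EV replicate 2 the highest library (log2 fold change 0.70 ± 0.10, SE; edgeR adjusted p = 2.93e-05).

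TFDP1, which encodes the DP1 subunit that E2F1 to E2F6 need to bind DNA firmly, was at 193, 207 and 188 CPM in the EV libraries, against 160.3, 145 and 136 CPM in the control libraries. The groups did not overlap (log2 fold change 0.42 ± 0.07, SE; edgeR adjusted p = 5.58e-05). Its annotated pseudogene TFDP1P2 had 6 to 11 counts in the EV libraries and 2 to 4 in the control libraries, beside 3698 to 5214 counts of TFDP1 over the 6 libraries.

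Of the pocket protein genes, only RBL1 was called. RBL1 encodes p107, which is made mainly in cycling cells, and was at 24.6, 28.6 and 29.3 CPM in the EV libraries, against 25.1, 22.4 and 22.7 CPM in the control libraries. EV replicate 1 lay below control replicate 1, so the groups overlapped. The log2 fold change was 0.23 ± 0.09 (SE; edgeR adjusted p = 0.0360). It no longer passed without EV replicate 2 (adjusted p = 0.121), EV replicate 3 (adjusted p = 0.149), control replicate 2 (adjusted p = 0.105) or control replicate 3 (adjusted p = 0.0832), and with upper-quartile scaling (adjusted p = 0.0520).

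RB1, which encodes pRB, the retinoblastoma tumour suppressor, was at 51.1, 54.2 and 53.5 CPM in the EV libraries, against 49.8, 44.2 and 51.5 CPM in the control libraries. The groups overlapped (log2 fold change 0.13 ± 0.07, SE; edgeR adjusted p = 0.152; 95% interval -0.02 to 0.27). RBL2 encodes p130, the pocket protein that prevails in resting cells, and was at 65.2, 65.7 and 65.3 CPM in the EV libraries, against 69.4, 69.5 and 72.5 CPM in the control libraries. RBL2 was the only one of the 10 genes with a negative log2 fold change, and its EV libraries all lay below the controls, yet it did not pass (-0.11 ± 0.06, SE; edgeR adjusted p = 0.154; 95% interval -0.23 to 0.02). Exons of RBL2 share 610 bases with the opposite-strand gene AKTIP in GENCODE v29. The sources used here do not say whether counting used strand, so RBL2 counts are uncertain to that extent. AKTIP itself was not called (log2 fold change 0.12 ± 0.08, SE; edgeR adjusted p = 0.231).

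**Figure D2:**
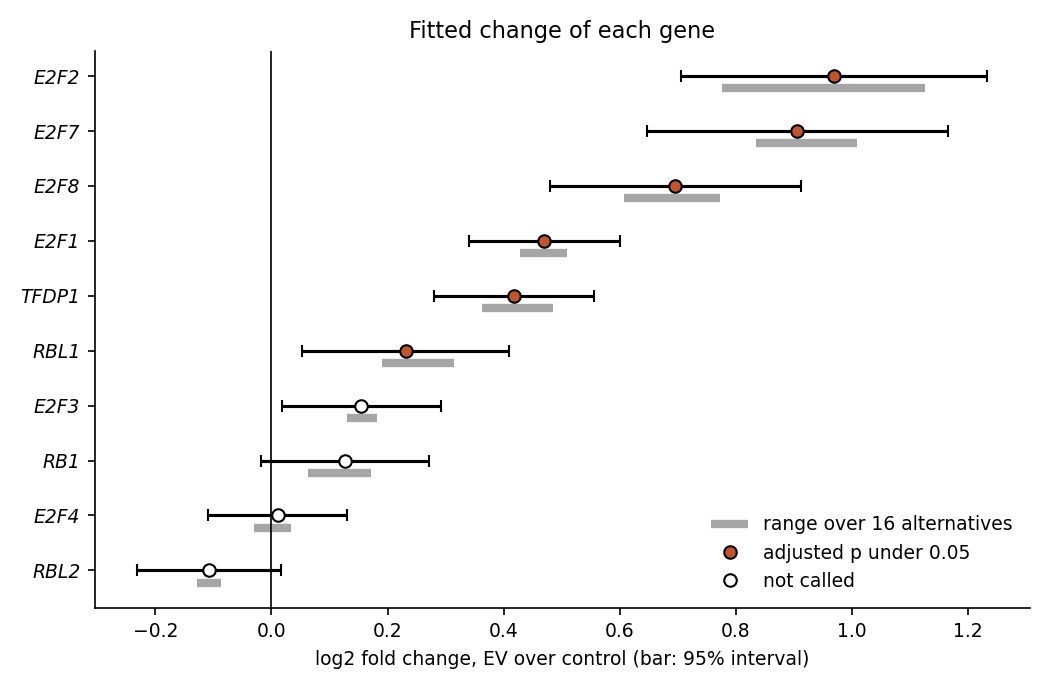
Fitted log2 fold change of EV over control for each gene, with its 95% interval as a black bar; filled points passed an adjusted p under 0.05, open points did not, and grey bars span the 16 alternative settings. The genes run from E2F2 at 0.97 down to RBL2 at -0.11, and only E2F4 has a grey bar on both sides of 0.

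Levels were compared between genes per length, as CPM per kb of exon in GENCODE v29. In the EV libraries the order was E2F4 (102 ± 1.53), TFDP1 (74.0 ± 3.71) and E2F1 (42.2 ± 1.79; SD, n = 3). RBL2 (13.3 ± 0.0513), RB1 (10.6 ± 0.325) and E2F3 (9.32 ± 0.348) followed. The lowest levels were those of E2F2 (5.15 ± 0.226), RBL1 (4.73 ± 0.433), E2F8 (4.71 ± 0.522) and E2F7 (1.75 ± 0.153). In these libraries E2F2, RBL1 and E2F8 did not separate, since neighbours overlapped between libraries. In the control libraries the first 6 genes stood in the same order. RBL1 came next, at 4.02 ± 0.251 CPM per kb, above E2F8 at 2.91 ± 0.271 and E2F2 at 2.64 ± 0.669, which overlapped each other. E2F7 was lowest in both groups, at 0.932 ± 0.111 CPM per kb in the control libraries. The order assumes that all annotated exons are used, and isoform use was not measured.

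**Figure D3:**
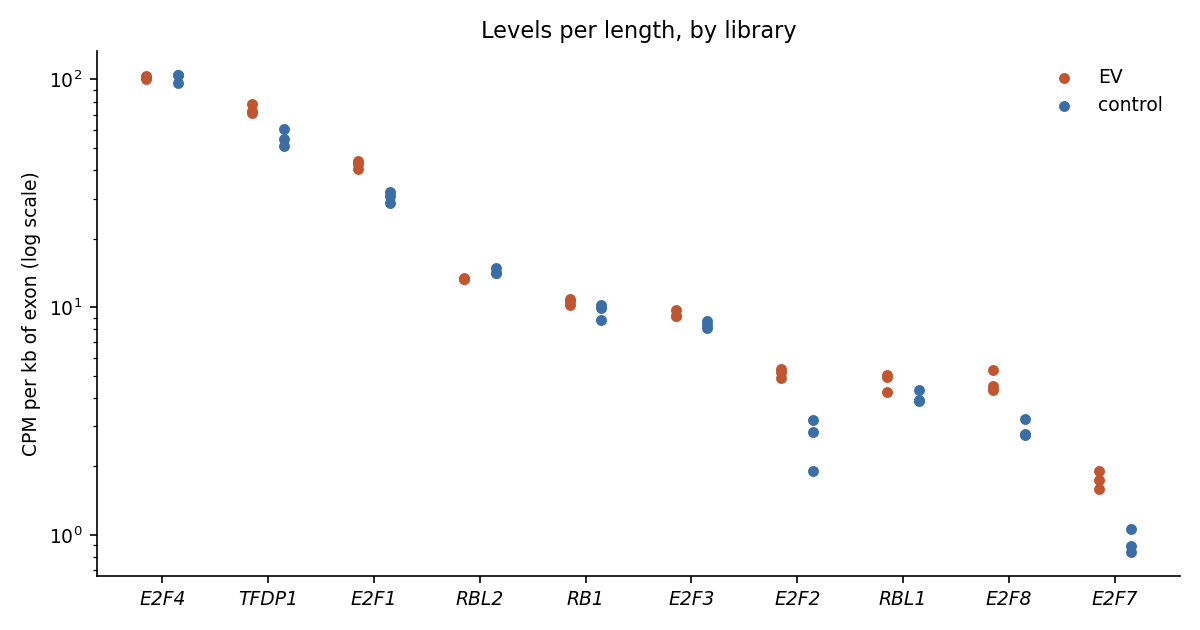
Level of each gene per length, as CPM per kb of exon on a log axis, in the 3 EV libraries (left of each pair) and the 3 control libraries (right); each point is a library. E2F4 is highest and E2F7 lowest in both groups, and E2F2, RBL1 and E2F8 share 1 range in the EV libraries.

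Ratios of raw counts within a library do not depend on how libraries are scaled, and 4 of them were computed. RBL1 stood at 0.377, 0.435 and 0.448 of RBL2 in the EV libraries, against 0.361, 0.323 and 0.313 in the control libraries. This ratio between the transcripts of 2 pocket protein genes was higher in every EV library than in any control (log2 difference 0.34, EV minus control). E2F1 stood at 0.492, 0.506 and 0.478 of E2F4 in the EV libraries, against 0.364, 0.330 and 0.382 in the control libraries. The log2 difference of this ratio between EV and control libraries was 0.46. E2F1 was at 2.08, 2.03 and 1.89 times RB1 in the EV libraries, against 1.61, 1.63 and 1.50 times in the control libraries (log2 difference 0.34). E2F8 was at 0.160, 0.189 and 0.175 of E2F1 in the EV libraries, against 0.158, 0.149 and 0.141 in the control libraries. Here the lowest EV library and the highest control nearly met, with a log2 difference of 0.22. Each ratio gave p = 0.1 in the two-sided exact permutation test and 0.1 after adjustment over the 4, the smallest p that 3 libraries against 3 allow.

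**Figure D4:**
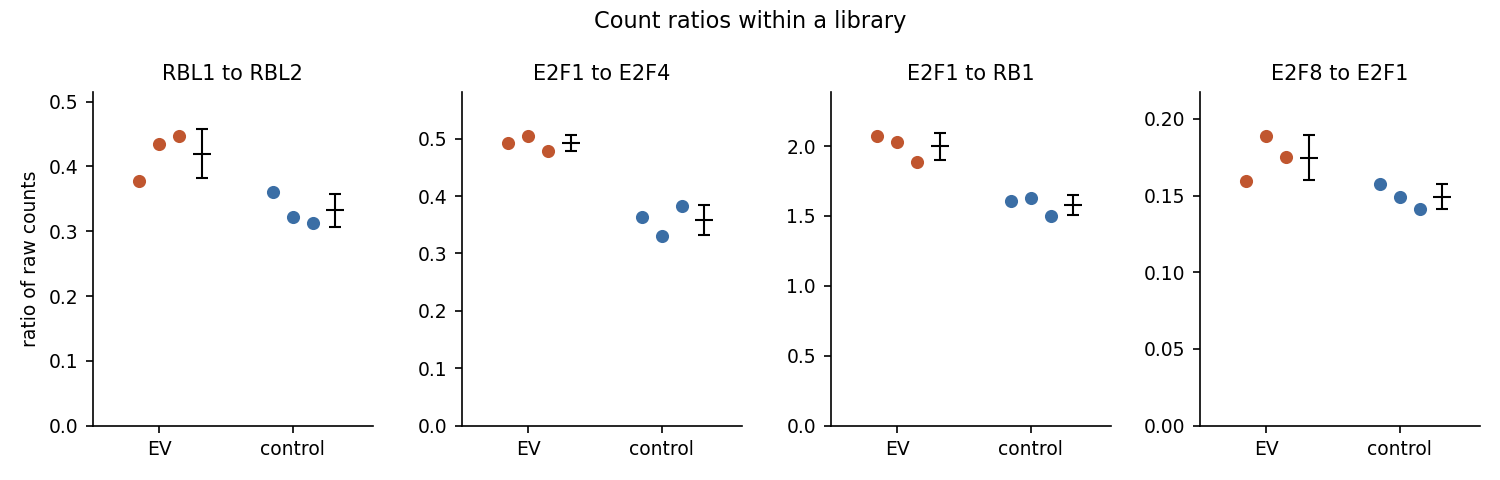
Ratio of the raw counts of the named gene pairs within each library, EV-treated at the left and control at the right of each panel; points are libraries and the bars are mean ± SD (n = 3 each). In all 4 panels the EV points lie above the control points, with the smallest gap for E2F8 to E2F1.

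Other genes that work with these proteins were counted as lists, without a test over a list. The first held other E2F and DP genes, genes of the MuvB complex, and MYBL1, MYBL2, FOXM1 and DYRK1A. MuvB joins E2F4, DP and p130 or p107 in the repressive DREAM complex of resting cells. Later it works with MYBL2 and FOXM1 on mitotic genes. Of the listed genes outside E2F, DP and MuvB, MYBL2 and FOXM1 rose. Of 12 tested genes 5 rose and 0 fell (edgeR), with a median log2 fold change of 0.18, beside 20.2% called higher and 20.7% lower among all tested genes. At an unadjusted p under 0.05, 6 were higher and 1 lower, and DESeq2 and limma-voom called 5 higher and 0 lower. LIN9, a MuvB subunit, was at 21.9 ± 1.25 CPM in EV libraries and 15.3 ± 0.249 CPM in control libraries (SD, n = 3 each; log2 fold change 0.52 ± 0.08, edgeR adjusted p = 8.2e-05). LIN52, the subunit that links MuvB to the pocket proteins, had a log2 fold change of 0.48 ± 0.10 (edgeR adjusted p = 0.00103). MYBL2, which encodes B-MYB, had one of 0.27 ± 0.06 (edgeR adjusted p = 0.000815). The other E2F and DP genes tested did not pass. E2F5 was at 0.15 ± 0.13, E2F6 at 0.22 ± 0.09 (adjusted p = 0.0558) and TFDP2 at -0.14 ± 0.06 (adjusted p = 0.0854) on the log2 scale. E2F6 passed without control replicate 1 (adjusted p = 0.0471) and with library totals alone (adjusted p = 0.0437), and TFDP2 passed with upper-quartile scaling (adjusted p = 0.0483). TFDP3 was not analysed here.

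The list of G1 cyclin, kinase and inhibitor genes also held CDC25A, SKP2, CCNF, FBXO5 and FZR1. These are no G1 cyclins, kinases or CDK inhibitors, and all of them rose. Of the 18 tested genes of the whole list, 13 rose and 4 fell, beside 20.2% called higher and 20.7% lower among all tested genes. The median log2 fold change of the list was 0.46. CDC25A, the phosphatase that activates CDK2, was at 39.3 ± 3.12 CPM in EV libraries and 21.1 ± 0.556 CPM in control libraries (SD, n = 3 each; log2 fold change 0.90 ± 0.08, edgeR adjusted p = 4.93e-08). CCNE1, which encodes cyclin E1, was at 42.4 ± 2.54 CPM in EV libraries and 25.7 ± 0.290 CPM in control libraries (0.72 ± 0.07, edgeR adjusted p = 2.7e-07). SKP2, the ubiquitin ligase subunit that marks p27 for destruction, had a log2 fold change of 0.66 ± 0.07.

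The D-type cyclin genes moved apart. CCND1 was at 221 ± 11.4 CPM in EV libraries and 167 ± 1.60 CPM in control libraries (SD, n = 3 each; log2 fold change 0.41 ± 0.06). CCND3, chosen after its values were seen, was at 87.4, 87.5 and 87.8 CPM in EV libraries, against 52.9, 51.3 and 34.7 CPM in control libraries, where replicate 3 was again low. The 4 genes that fell were CCND2 (-1.36 ± 0.19), CDK6 (-0.89 ± 0.10), CDKN1C (-0.45 ± 0.17) and CDKN1A (-0.37 ± 0.12). CCND2 had a low level, at 1.87 ± 0.540 CPM in EV libraries (36 to 60 counts) and 4.80 ± 0.193 CPM in control libraries (108 to 137 counts). Its call held in all 16 alternatives. The CDK inhibitor genes went both ways. Those that fell, CDKN1A and CDKN1C, encode p21 and p57. CDKN2C, which encodes the CDK4 and CDK6 inhibitor p18, rose (0.58 ± 0.08, edgeR adjusted p = 9.66e-06), as did CDKN2D, which encodes p19 (0.22 ± 0.09, edgeR adjusted p = 0.0483), though CDKN2D passed in only 5 of 16 alternatives. It was not called when any 1 library other than EV replicate 2 was left out (adjusted p of 0.0572 to 0.142), nor with the replicate number as a block (adjusted p = 0.0686). CDKN1B, which encodes p27, was not called (0.07 ± 0.07, edgeR adjusted p = 0.510). CDKN1A no longer passed without EV replicate 2 (adjusted p = 0.135), control replicate 2 (adjusted p = 0.113) or control replicate 3 (adjusted p = 0.0650). CDKN1C no longer passed without EV replicate 1 or EV replicate 3 (adjusted p = 0.110 each), control replicate 2 (adjusted p = 0.0862) or control replicate 3 (adjusted p = 0.0799), with the replicate number as a block (adjusted p = 0.0515), with DESeq2 (adjusted p = 0.151) or when all counted genes were kept (adjusted p = 0.0632). CDKN2A, which encodes the CDK4 and CDK6 inhibitor p16, was not analysed here.

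Downstream, of 30 genes listed as E2F targets of the G1/S transition, 26 rose and 0 fell (edgeR), at a median log2 fold change of 0.42. These counts stand beside 20.2% called higher and 20.7% lower among all tested genes. At an unadjusted p under 0.05, 27 were higher and 0 lower, and DESeq2 and limma-voom called 26 higher and 0 lower. The list includes TOP2A, which rose and is often counted as a G2/M gene. PCNA, the sliding clamp of DNA polymerase, was at 312 ± 10.1 CPM in EV libraries and 180 ± 14.4 CPM in control libraries (SD, n = 3 each; 0.80 ± 0.06, edgeR adjusted p = 1.42e-08). CDC6, which loads the replicative helicase, had a log2 fold change of 0.86 ± 0.07, and RRM2, a ribonucleotide reductase subunit, one of 0.63 ± 0.06. Of 24 tested G2/M genes known as DREAM targets, 16 rose and 0 fell (edgeR; at an unadjusted p under 0.05, 21 higher and 0 lower; 0 lower with DESeq2 or limma-voom), with a median of 0.40, beside the same shares of all tested genes. AURKA (0.67 ± 0.06), CCNA2 (0.57 ± 0.06) and CDK1 (0.62 ± 0.07) had the lowest adjusted p. Counted per gene with a promoter, the E2F words were in 14 of 27 of the G1/S list and 3 of 20 of the G2/M list. The word TTTGAA, the core of the CHR element through which DREAM binds, was in 2 of 27 and 14 of 20 on either strand. It was in 15.2% of all promoters, and in 1349 of 10292 tested genes with a promoter.

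Genes of chromatin co-repressors that pocket proteins or E2F6 recruit had a median log2 fold change of -0.01. Of 19, 5 rose and 0 fell (edgeR), beside 20.2% called higher and 20.7% lower among all tested genes. The number that rose was thus near the share of all tested genes. At an unadjusted p under 0.05, 6 were higher and 0 lower, and DESeq2 and limma-voom called 0 lower. SUV39H1, a histone H3 lysine methyltransferase that binds pRB, was at 68.8 ± 1.21 CPM in EV libraries and 43.2 ± 3.41 CPM in control libraries (SD, n = 3 each; 0.67 ± 0.07, edgeR adjusted p = 2.86e-07). CBX3, a heterochromatin protein, had a log2 fold change of 0.45 ± 0.07 and RBBP7, a histone-binding protein found with HDAC complexes, one of 0.24 ± 0.05. The share of cells in each phase of the cycle was not measured, and its part in these differences was not tested.

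**Figure D5:**
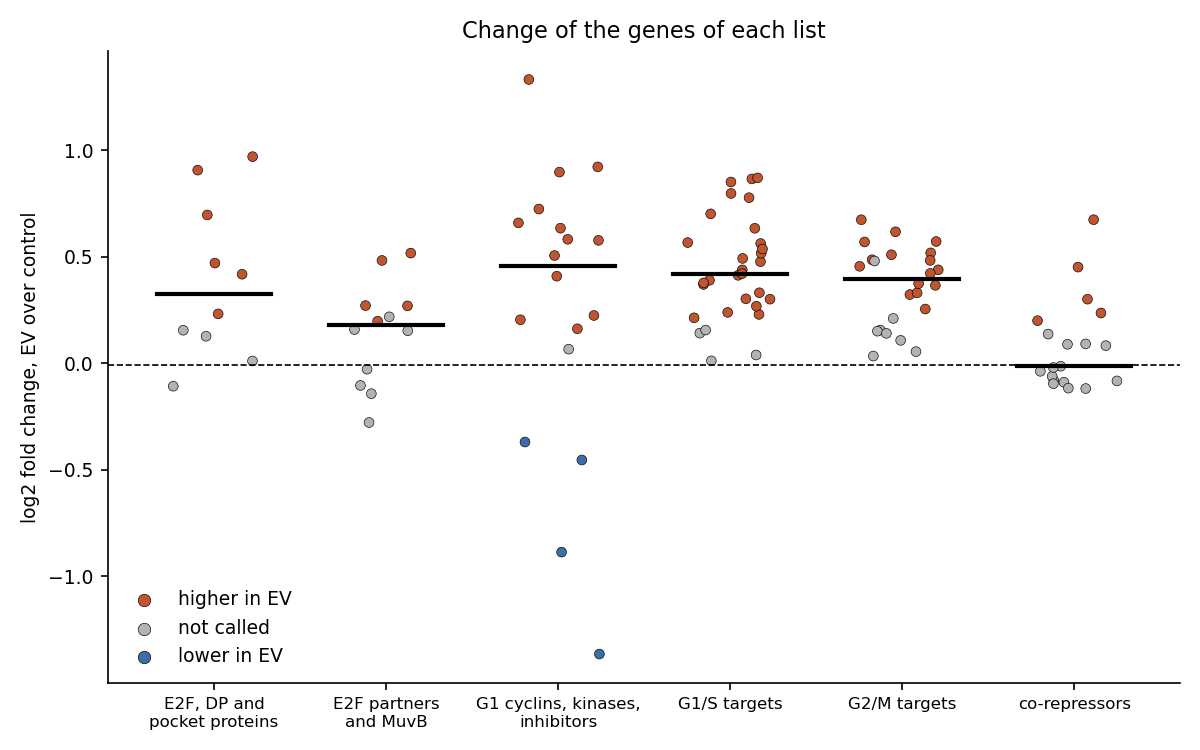
Log2 fold change of EV over control for the tested genes of each list; each point is a gene, coloured by whether it was called higher, lower or not called at an adjusted p under 0.05, thick lines are list medians and the dashed line is the median of all tested genes. The G1/S and G2/M lists have called genes on the higher side alone, while the G1 list has 4 called lower.

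In the authors' deposited table, fold changes are control over EV, so a gene higher in EV libraries has a negative value. E2F2 has a log2 fold change of -0.98 and E2F7 one of -0.92 in the authors' deposited table. The q-values of the authors' deposited table are under 0.05 for E2F1, E2F2, E2F7, E2F8, TFDP1 and RBL1 (q = 0.0311 for RBL1) and above it for E2F3 (q = 0.0672), E2F4, RB1 and RBL2. None of the 10 is among the genes marked as changed in the authors' deposited table. It was made from the same libraries and is no independent support.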

How the data were processed

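The count table that the authors deposited holds unnormalized whole numbers for 32453 features in 6 libraries. Features without a gene name (0.099% to 0.134% of a library) were left out. The authors also deposited a comparison with mean log2 abundance, log2 fold changes, p-values and q-values. TopHat, RSEM and the hg19 build are named, without versions, per the submitters' processing notes, and the kit keeps strand, per the labels' protocols. The test was that of edgeR 4.0.16, run in R 4.3.3 (glmQLFit and glmQLFTest, TMM factors, filterByExpr, prior count 0.125, Benjamini-Hochberg over all tested genes, called under 0.05). Adjusted p-values given for a gene are from edgeR where no other tool is named. The SE is the log2 fold change divided by the square root of F. Exon lengths came from GENCODE v29 on GRCh38, and were used for levels per kb only. On simulated counts of these libraries, 46%, 82%, 86% and 100.0% of genes changed by 1.25, 1.5, 2 and 4-fold were called, with 7 false calls among 14290 unchanged genes. The simulation changed only 50 genes at each fold, against 6001 called in the data. Adjustment is stricter with so few changed genes, so these shares do not carry over to the real test.

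Alternatives used limma 3.58.1 (voom), DESeq2 1.42.0, other scalings, filters and thresholds, and libraries left out. Named genes were the 10 genes, the 3 called genes with the lowest adjusted p of each list, CDKN1A, CCND1 and CDKN2A. Others were named as exceptions to a count or after their values were seen. The genes, lists and tests were chosen with earlier results of these data known.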

Additional observations from a re-analysis of the deposited data

How the results depend on the processing

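Over 16 alternatives, E2F1, E2F2, E2F7, E2F8 and TFDP1 kept their direction and call in all 16, and RBL1 kept its direction in all and its call in 10. E2F3, RB1 and RBL2 were called in none. With upper-quartile scaling E2F4 turned to -0.00893. Leaving out 1 library put E2F4 between -0.0297 (without control replicate 3) and 0.0344 (without control replicate 1). CDKN1B, not called, was between -0.0177 (without EV replicate 1) and 0.136 (without EV replicate 3). Without control replicate 2, 1 co-repressor gene was called lower, KDM5A (-0.17, edgeR adjusted p = 0.0474). Leaving out 1 library gave 5 to 6 of the 10 genes higher and 0 lower, and 4756 to 5612 calls over all genes. At an adjusted p under 0.01 there were 4093 calls, against 6001. Leaving out 1 library gave log2 differences of 0.29 to 0.41 for RBL1 to RBL2, 0.40 to 0.51 for E2F1 to E2F4, 0.30 to 0.38 for E2F1 to RB1 and 0.16 to 0.29 for E2F8 to E2F1. The counts of the other lists stayed within 1.5 times their main value. Same-numbered libraries did not deviate together (correlations of -0.052, -0.029 and -0.0509), and 0 of the 3 EV libraries correlated best with their own number. The best correlations with another number were small too (0.122 to 0.149). Such values cannot show whether same-numbered libraries share a culture or a day of processing. With the replicate number as a block, 5743 genes were called, and 6 of the 10 genes were higher. E2F7, at 5.35 CPM in the control libraries, has the fewest counts of the 10 genes, so counting error weighs most on it.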

Other observations

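The E2F words were also counted in the promoters of all tested genes, as a description with no test. Of 691 tested genes with such a word, 29.7% were higher and 17.4% lower in the EV libraries, and of 9601 without one, 22.1% were higher and 20.9% lower. Among the 664 with a word that are neither among the 10 genes nor in a cell cycle or co-repressor list, 27.9% were higher and 18.1% lower. Of 1349 tested genes with the word TTTGAA on either strand, 25.2% were higher and 19.7% lower. Of the 8943 without it, 22.2% were higher and 20.8% lower.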
